A study of Drosophila melanogaster with 2 samples.

Results

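The genes described here are 9 core components of the Wingless signalling pathway of Drosophila melanogaster, of 13968 protein-coding genes in the annotation. They are wg, fz, fz2, dsh, Axn, sgg, nkd, arm and pan, chosen by name, each taken with 10 kb to either side. The assay was chromatin immunoprecipitation followed by sequencing (ChIP-seq) of the transcription factor Adf1, a MADF domain protein that binds DNA. Whole embryos aged 0 to 24 h were used, from a transgenic strain called Adf1-GFP that makes Adf1 joined to enhanced green fluorescent protein (Adf1-eGFP). The precipitating antibody was against the fluorescent protein, although the antibody label reads Adf1. The labels call the tagged gene an insertion and do not say whether untagged Adf1 is also present. The series holds 1 group of 2 biological replicates with 1 library each and no control sample, so no conditions were compared. Whole embryos mix all tissues over the whole of embryogenesis, so which cells gave a peak is unknown.

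Wingless is a secreted ligand of the Wnt family that is known for patterning each segment of the embryo. It binds receptors of the Frizzled family, which act through Dishevelled to inhibit a complex in which Axin holds the kinase Shaggy (glycogen synthase kinase 3) next to Armadillo, the fly beta-catenin. Without the ligand Armadillo is phosphorylated and degraded, and with it Armadillo enters the nucleus and works with the DNA-binding protein Pangolin (the fly TCF) to switch on target genes, one of which encodes the feedback inhibitor Naked cuticle.

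The sequences below are windows of 101 bp centred on summits, the single base that the authors' peak calls mark in each peak. They are shown because 3 of the 4 sgg summits with a signal above 500 hold a group of short words that several weak summits lack. These 3 come first, from the strongest, and the summit at wg follows. The window of the other sgg summit above 500, at the sgg-RG start, lies in a 5' UTR, holds 1 of the words and is not printed. The last 3 windows are examples of weak summits at sgg, nkd and fz, picked by no stated rule. They hold neither kind of match. Their shares of G or C bases were 30.7%, 39.6% and 24.8%, against a median of 46.5% over all summits of the gene regions. Above the median signal of the list used below, 5 summits lack the words. Their shares were 55.4% at wg, 57.4% and 28.7% at sgg, and 61.4% and 59.4% at nkd. Only that of wg is printed. The weakest sgg summit, with a signal of 17.4, holds the triplet repeat and is not printed. All printed windows are read from the plus strand of RefSeq's Release 6 genome (dm6), on which the peaks were called. Capitals mark any of the 10 six-letter words that were most enriched at summits elsewhere in the genome (described further on), and in wg, which has none of them, the triplet repeat GCNGCNGC. None of the printed windows overlaps an annotated UTR.
sgg, chrX:2646477-2646577: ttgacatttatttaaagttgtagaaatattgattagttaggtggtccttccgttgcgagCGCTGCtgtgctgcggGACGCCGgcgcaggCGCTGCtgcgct
sgg, chrX:2634628-2634728: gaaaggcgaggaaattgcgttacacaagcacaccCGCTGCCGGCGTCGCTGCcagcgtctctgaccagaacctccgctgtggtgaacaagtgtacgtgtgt
sgg, chrX:2636977-2637077: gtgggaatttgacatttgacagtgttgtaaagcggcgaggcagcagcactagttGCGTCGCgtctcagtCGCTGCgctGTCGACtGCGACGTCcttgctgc
wg, chr2L:7306915-7307015: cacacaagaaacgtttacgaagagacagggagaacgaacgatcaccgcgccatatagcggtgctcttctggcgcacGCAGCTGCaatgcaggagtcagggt
sgg, chrX:2647492-2647592: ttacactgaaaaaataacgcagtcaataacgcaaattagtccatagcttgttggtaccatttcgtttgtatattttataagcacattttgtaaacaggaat
nkd, chr3L:19045489-19045589: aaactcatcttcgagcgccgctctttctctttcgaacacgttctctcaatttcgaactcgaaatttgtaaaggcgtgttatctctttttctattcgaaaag
fz, chr3L:14272476-14272576: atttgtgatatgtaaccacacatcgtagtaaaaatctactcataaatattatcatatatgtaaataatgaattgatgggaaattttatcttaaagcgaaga

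Adf1 summits lay close to start sites of 5 of the 9 genes: the ligand gene wg, the receptor gene fz2, the kinase gene sgg, the feedback inhibitor nkd and the nuclear effector pan. A gene was counted when a summit was within 500 bp of any of its annotated transcription start sites (TSSs). The receptor gene fz, dsh, Axn and arm had no such summit. These counts come from the conservative list, which the authors called across both replicates and which held 4370 summits, and they are set beside 18.9% of all 13968 protein-coding genes. The longer optimal list added arm and gave 6 genes, against 23.2% of all genes. Replicate 2's own list of 6003 summits also gave 6, with Axn in place of arm, against 23.2%. Replicate 1's own list of 3126 summits gave 3 genes, wg, fz2 and sgg, against 14.3%. These 3 genes were the ones called in all 4 lists, and the calls at nkd and pan were missing from replicate 1's own list. The peak lists hold no read counts, so the depth of the libraries is unknown and no interval can be given for a peak.

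**Figure D1:**
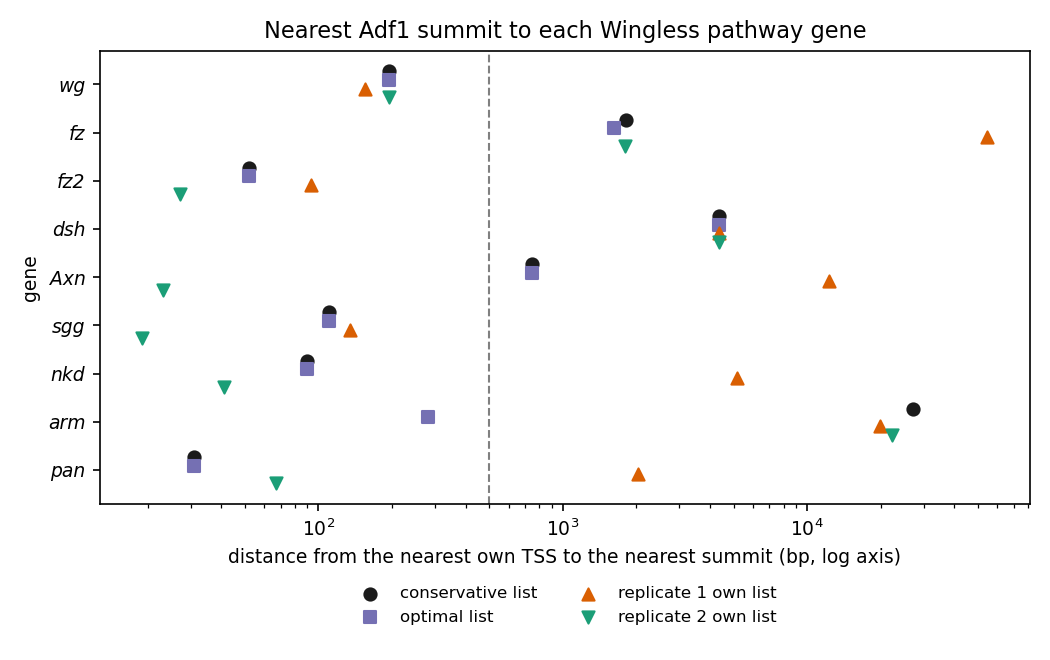
Distance in bp (log axis) from the nearest TSS of each gene to the nearest summit, with a marker for each of 4 lists and a dashed line at 500 bp. Markers of wg, fz2 and sgg lie left of the line in all 4 lists, those of fz and dsh lie right of it in all 4, and Axn, nkd, arm and pan change side with the list.

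Genes with more start sites have more chances of a summit nearby, and the 9 genes carry 28 TSSs among them. Of the 4 with 1 TSS, wg and nkd were counted and fz and dsh were not, against 13.1% of the genes with 1 TSS. Of the 5 with 2 or more, fz2, sgg and pan were counted, against 34.8% of such genes. Of the 3 with 4 or more, sgg and pan were counted and arm was not, against 61.6% of such genes, so the share among genes of many starts is close to the background. Counted by start site, 11 of the 28 TSSs (39.3%) had a conservative summit within 500 bp, against 17.8% of all 19275 distinct TSSs. Of these 11, 5 belong to sgg and 3 to pan. Replicate 1's own list reached 6 of the 28, against 13.1% of all TSSs, and replicate 2's own list 14, against 22.6%.

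Across the 9 genes and their flanks, 535 kb in all, the conservative list held 25 summits in 22 peak intervals. At least 1 lay in the regions of 8 genes, all but arm, against 56.9% of all genes. That share was not matched for length, and a longer region has more chances of a summit. The 9 regions ran from 22844 bp at dsh to 114399 bp at fz2. In the dsh and Axn regions every conservative summit was nearer to another gene's start. At the average density of the same chromosome arms 16.4 summits would fall in these 535 kb, a ratio of 1.52. That average is taken over the whole length of each arm, so it is not matched to regions centred on genes. The sgg region alone held 10 summits where the arm average gives 2.67, and the other 8 regions together held 15 where it gives 13.8, a ratio of 1.09. The excess over the arm average in this list therefore sits mostly at sgg. Without sgg the ratio was 0.94 in replicate 1's own list and 1.27 in replicate 2's.

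The nearest TSS belonged to the pathway gene itself at 19 of the 25 summits, of which 8 were upstream and 11 downstream of it, and 11 of these were within 500 bp. At the other 6 a neighbouring gene's start was nearer. The same counts over all conservative summits are not given here, so these counts describe the 25 only. Introns or non-coding exons held 12 of the 25 summits, 5' UTRs held 8, and 5 were outside protein-coding genes. Over all conservative summits the shares were 42% for introns or non-coding exons, 18.2% for 5' UTRs and 36.7% outside genes. No summit lay in a coding sequence or a 3' UTR, which together are rare in the whole list as well, at 2.2% and 0.915%.

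The signal of a peak is the value that the authors' peak caller gave it. Its scale is unknown, so it ranks peaks within 1 list and is not comparable between lists. In the conservative list the 25 summits ranged from 17.4 to 2578 with a median of 137.4, against a median of 150.6 over the list, and 12 were above that median. The signals above 500 were 4 at sgg and 2 at fz2, and the next was 234.5 at wg.

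**Figure D2:**
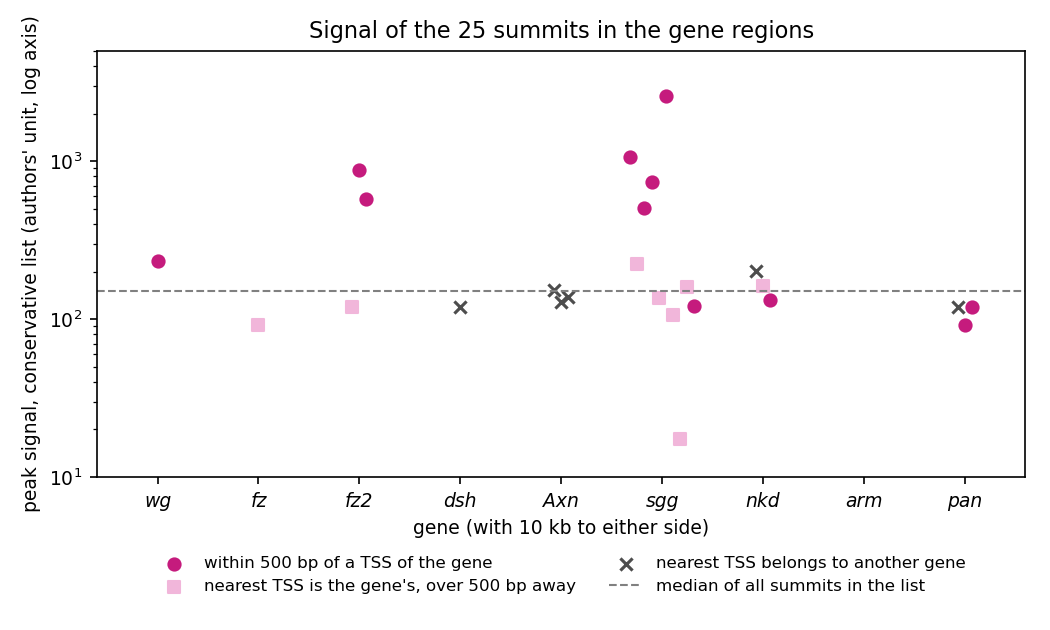
Conservative-list signal (authors' unit, log axis) of the 25 summits by gene, marked by whether the nearest TSS is the gene's own within 500 bp, its own farther away, or another gene's; the dashed line is the list median of 150.6. The highest points are at sgg (2578 and 1067) and fz2 (877), while every summit in the dsh, pan and fz regions is below the line and arm has none.

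The ligand gene wg (FBgn0284084, chr2L:7307159-7316265, plus strand) has 1 TSS, and 1 summit lay 194 bp upstream of it. Its signal was 234.5 in the conservative list, rank 1323 of 4370. In the replicates' own ranked lists, which hold all called peaks before the reproducibility threshold, its signal was 115.2 in replicate 1 and 120.8 in replicate 2, the top 3.65% and the top 2.93% of those lists. The next summit of the conservative list was 29.8 kb away on the upstream side and 26.3 kb away on the downstream side, beyond the wg gene and its flank. In the ranked list of both replicates together, which holds 31651 summits, the next ones were 20.5 kb and 26.3 kb away, and in replicate 2's ranked list 20.2 kb and 25.1 kb. In replicate 1's ranked list they were nearer, at 5.08 kb and 3.15 kb. The ranked list of both replicates had 1 summit in the wg region where the arm average gives 6.87, a ratio of 0.146. In the other 8 regions the same ratio ranged from 1.21 at pan to 2.53 at nkd, so wg was the sparsest of the 9 regions in weak peaks while holding a summit above the list median at its start. Replicate 1's ranked list had 4 summits in the wg region where the arm average gives 6.23. In replicate 2's it held 1 where 12.7 would be average.

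The receptor gene fz2 (FBgn0016797, chr3L:19140975-19235373, minus strand) had strong signal at 1 of its 3 TSSs. Frizzled 2 is a receptor that binds Wingless and acts redundantly with Frizzled in the embryo. Its most upstream start, that of the transcripts fz2-RD and fz2-RE, had a pair of summits in 1 interval, 52 and 251 bp into the transcript and within the 5' UTR. The inner summit, at 251 bp, had a signal of 877 in the conservative list, rank 248, with 281 in replicate 1 and 618 in replicate 2. The summit at 52 bp had 573 in the conservative list, 182 in replicate 1 and 171 in replicate 2. Replicate 1 ranked both in the top 2.03% of its list, and replicate 2 both in the top 1.96%. The start shared by 5 other transcripts (fz2-RB and others) had no conservative summit within 500 bp, the nearest being 1459 bp downstream with a signal of 119.7. A summit 71 bp from that start was in the optimal list, with a signal of 68.6, and replicate 2's own list had one 64 bp from it with 66.7. The remaining start, that of fz2-RA, had no summit nearby in the conservative or the optimal list, the nearest being 22429 bp away.

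The other receptor gene, fz (FBgn0001085, chr3L:14274343-14368639, plus strand), which encodes Frizzled and also serves planar cell polarity, had 1 conservative summit in its region, 1817 bp upstream of its TSS. Its signal was 92.2, rank 3723, with 38.4 in replicate 1 and 55.9 in replicate 2, and replicate 1's own list did not hold it. At the fz start itself the ranked lists had only weaker summits. Both replicates together gave one 90 bp away with a signal of 59.0, and replicate 2 gave one 40 bp away with 50.9. The fz and fz2 regions are of nearly equal length, and the strongest summit of fz2 had a signal of 877 against 92.2 at fz within the same list.

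The gene dsh (FBgn0000499, chrX:11355881-11358724, plus strand) encodes Dishevelled, the adaptor that passes the signal on from the receptors. Its only conservative summit in the region was 4347 bp upstream of its TSS and 926 bp from the start of CG1737. The signal there was 119.7 in the conservative list, 62.2 in replicate 1 and 69.7 in replicate 2. Near the dsh start the replicates' ranked lists held weak summits, 486 bp away with a signal of 28.5 in replicate 1 and 4 bp away with 16.9 in replicate 2, neither past the authors' threshold.

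Axn (FBgn0026597, chr3R:30022842-30035311, plus strand) encodes Axin, the scaffold of the destruction complex. It has 2 TSSs and 3 conservative summits in its region, none within 500 bp of either start. Each of the 3 was next to another gene's start. The one 749 bp upstream of Axn was 128 bp from the start of Mgat2, with a signal of 152 in the conservative list, 45.0 in replicate 1 and 120 in replicate 2. On the other side of Axn, a summit with a signal of 128 was 26 bp from the starts of Sry-alpha and Sry-beta and within 500 bp of that of janA, and another with 137 was 13 bp from the start of Sry-delta. Sry-beta and Sry-delta encode zinc finger proteins, and Sry-alpha is needed when the early embryo forms cells. At the first Axn start itself, a summit 23 bp upstream was in replicate 2's own list with a signal of 44.0. The same position had 77.0 in the ranked list of both replicates, with a score of 810, just under the score of 830 that the thresholded lists need.

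The kinase gene sgg (FBgn0003371, chrX:2633952-2679553, plus strand) had the strongest and the most numerous summits of the 9 genes. Shaggy phosphorylates Armadillo in the destruction complex, and its gene has 11 annotated TSSs that give many isoforms. The strongest summit, the first sequence printed above, lay 110 bp upstream of the start of sgg-RQ. Its signal was 2578, rank 17 of the 4370 conservative summits, and it ranked 16 in replicate 1 with 930 and 24 in replicate 2 with 1606. This start is internal, 12.7 kb downstream of the outermost sgg TSS.

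A further 3 sgg summits exceeded 500 in the conservative list, each at a different start. One was 463 bp downstream of the sgg-RH start, with 1067 in the conservative list, 324 in replicate 1 and 702 in replicate 2. Another was 398 bp upstream of the sgg-RC start, with 503, 158 and 349 in the same order. The last was 312 bp downstream of the sgg-RG start, with 733, 313 and 417. All 3 were within the top 2.45% of replicate 1's ranked list and the top 0.865% of replicate 2's. The fifth start with a summit within 500 bp, shared by sgg-RD and sgg-RP, had a weaker one 129 bp upstream, with 120 in the conservative list, 31.7 in replicate 1 and 95.04 in replicate 2. Replicate 1's own list did not hold it.

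The other 5 summits of the sgg region were more than 500 bp from a start, with signals from 17.4 to 222 in the conservative list. The lowest, at 17.4, and its neighbour at 106 were the only 2 of the 25 summits missing from the optimal list, and both had the same nearest summit in each replicate's ranked list. Among all protein-coding genes, 9 genes, sgg included, had 5 or more TSSs with a summit within 500 bp. Only genes with that many annotated TSSs can reach this count. The gene sgg has 11, and 440 genes have 4 or more. Those 440 include genes with exactly 4, such as arm and pan, which cannot reach the count. For 43 genes, sgg included, the gene and its flanks held 10 or more summits. When each gene was represented by its outermost TSS alone, sgg was no longer counted as having a summit at its start, because the nearest summit was 726 bp away.

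**Figure D3:**
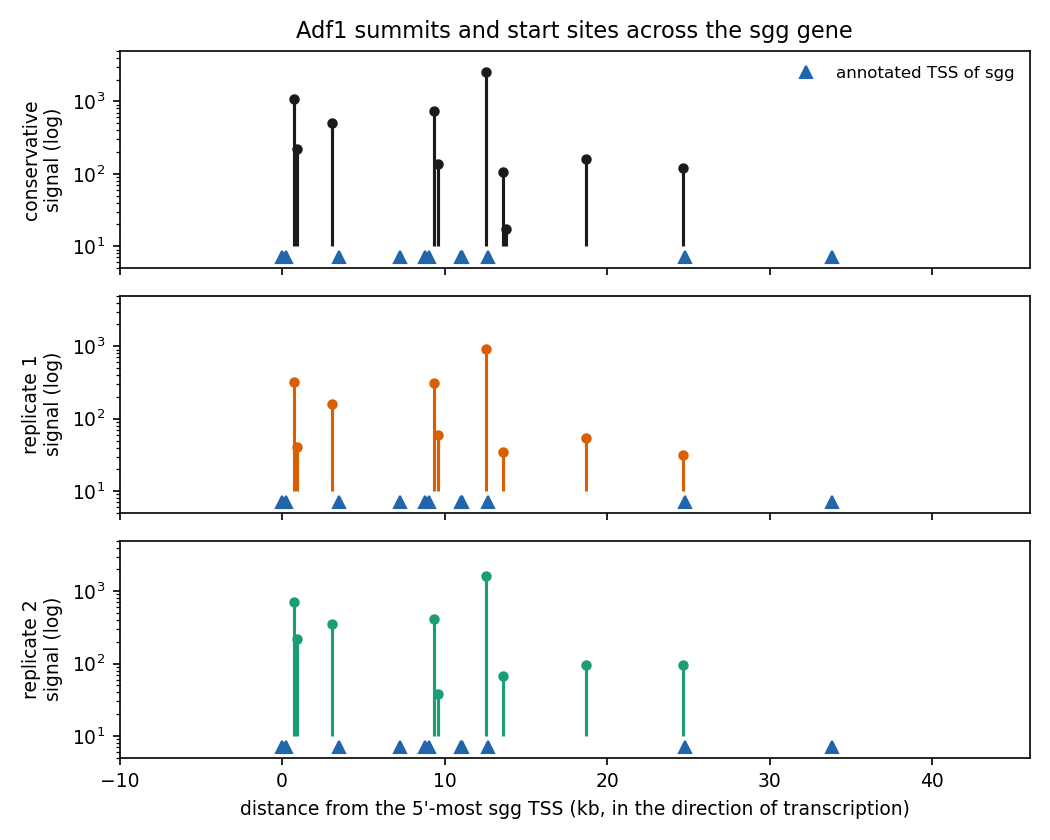
Signal (log axis) of the summits in the sgg region in the conservative list and of the matching summits in each replicate's ranked list, by distance in kb from the outermost TSS in the direction of transcription; triangles are the 11 annotated TSSs. The tallest line stands beside the sgg-RQ start in all 3 panels, and no summit lies beyond the start of sgg-RD and sgg-RP.

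The feedback inhibitor gene nkd (FBgn0002945, chr3L:19003741-19045449, minus strand) had 1 summit at its only TSS and another in an intron or non-coding exon. Naked cuticle binds Dishevelled and dampens the signal. The summit 90 bp upstream had a signal of 132 in the conservative list, 53.2 in replicate 1 and 92.6 in replicate 2, and was not in replicate 1's own list. The summit 5117 bp into the gene was a little stronger, with 162 in the conservative list, 56.5 in replicate 1 and 104 in replicate 2. It was in both replicates' own lists. The remaining summit of the region, with a signal of 200, lay beyond the end of nkd, 834 bp from the start of CG18135.

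The gene arm (FBgn0000117, chrX:1891401-1900646, minus strand) encodes Armadillo, which carries the signal to the nucleus and also links cadherins to the cytoskeleton. It was the only one of the 9 with no conservative summit in its region, the nearest being 27040 bp from any of its 4 TSSs. A summit was in the optimal list, with a signal of 75.4, 280 bp from the start of arm-RA and 283 bp from that of arm-RB and arm-RC. In the replicates' ranked lists the summits nearest to that last start had signals of 24.1 in replicate 1, 418 bp away, and 50.9 in replicate 2, 286 bp away, neither past the threshold. The call at arm thus rests on the optimal list alone.

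The gene pan (FBgn0085432, chr4:69326-114270, plus strand) encodes Pangolin, the TCF protein that binds Wingless target genes. It had weak summits at its upstream cluster of starts, covering 3 of its 4 TSSs. One lay 58 bp upstream of the start of pan-RA and pan-RR, with 91.7 in the conservative list, 39.0 in replicate 1 and 60.8 in replicate 2. The other lay 31 bp upstream of the start of pan-RD, with 119, 34.3 and 86.3. Neither was in replicate 1's own list, and both were in replicate 2's. The remaining summit, with a signal of 120, was 74 bp from the start of RpS3A, a ribosomal protein gene next to pan.

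All 25 summits were matched within 250 bp to a ranked summit of either replicate, at a median distance of 28 bp in replicate 1 and 21 bp in replicate 2. Replicate 2's own thresholded list had a summit within 250 bp of all 25, against 91.8% of all conservative summits. Replicate 1's own had one for 15, against 69.1%. By this rule a replicate summit could be counted for 2 neighbours. The sgg summits with signals of 17.4 and 106 took the same one in each replicate's ranked list, and it was nearer to that with 106. The 10 that replicate 1's own list lacked were 1 at fz, 1 at fz2, 2 at Axn, 3 at sgg, 1 at nkd and 2 at pan. The median place of the 25 was the top 9.1% of replicate 1's ranked list of 27254 summits and the top 3.99% of replicate 2's list of 61519. The lists differ in length, so these places cannot show whether binding differed between the replicates. Without the threshold a start with a summit at most 500 bp away was found in nearly every gene: 8 of the 9 in replicate 1's ranked list, against 47.3% of all genes, and all 9 in replicate 2's, against 64.1%.

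**Figure D4:**
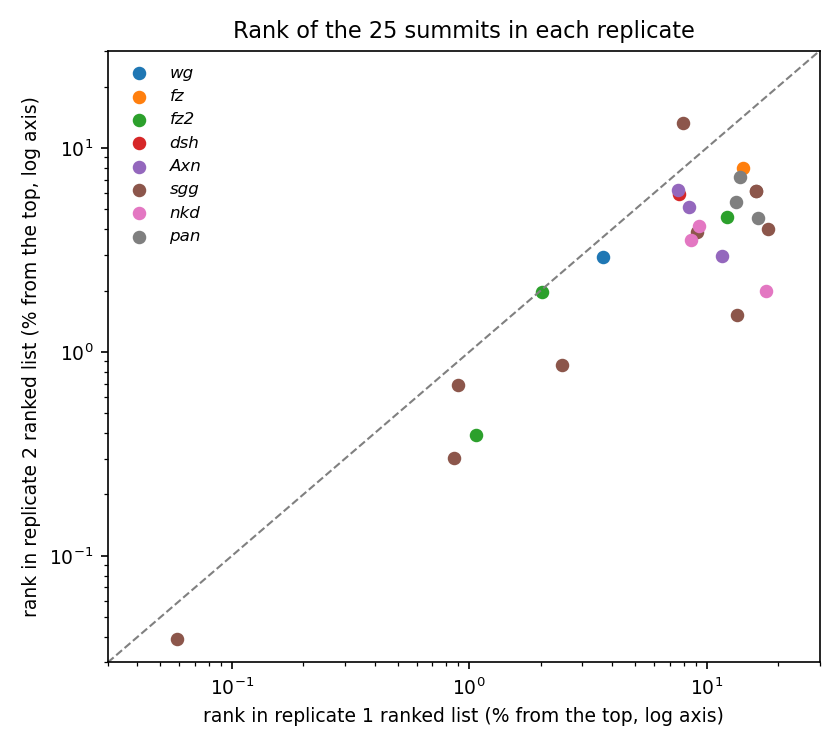
Place of the 25 summits in the ranked list of replicate 1 (horizontal, % from the top, log axis) and of replicate 2 (vertical, same unit), coloured by gene; the dashed line marks equal places. The wg summit and the strongest sgg and fz2 summits are in the top 3.65% of both lists, and the 18 weaker ones lie between the top 7.61% and the top 18.2% of replicate 1's list.

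The letters at the summits were searched on both strands in windows of 50 bp to either side. The triplet repeat GCNGCNGC was in 4 of the 25 windows, at wg and at 3 sgg summits including the weakest of all 25, against 16% of all conservative summits and 4.78% of windows centred 500 bp to either side. The share at these genes is that of the whole list. The letters GAGAG, bound by GAGA factor, were in 4 of 25, against 21% of all summits. The core of the Pangolin site, CTTTGA, was in 1 of 25, a summit at pan, against 4.71% of all summits and 5.86% of the windows beside them.

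A set of 10 six-letter words was then taken from the 4345 conservative summits outside the 9 regions, as those with the highest share at summits relative to the windows beside them. The leading word, GACGTC, was in 8.52% of those summits and in 1.09% of the windows beside them, and GTCGAC was in 8.45% and 1.09%. Next came ACGTCG with 10.6% against 2%, and then CGACGC with 15.6% against 3.33%. The words GACGCC with 10.7%, CGCTGC with 23.9%, CGTCGC with 16%, ACGCCG with 10.4%, CGTCGA with 11% and CGGCAG with 16.5% made up the rest. Each is counted with its reverse complement, and several overlap one another. In the windows of the 9 regions CGCTGC was the most frequent, in 6 of 25. At least 1 word was in 9 of the 25 windows, against 43% of all conservative summits and 26.8% of windows at all TSSs. Of the 50 windows centred 500 bp to either side of these same summits 14 (28%) held a word, against 20.1% of such windows beside all summits. At 3 or more distinct words the count was 4 of 25, against 20% of all summits. These 4 windows were those of the inner fz2 summit, with 7 words, and of the sgg summits at sgg-RH and sgg-RC, with 6 each, and at sgg-RQ, with 3. In the sgg-RH window, 7 matches run together into an unbroken stretch of 18 bases, as printed. Among the 12 summits above the list's median signal 7 held a word, and among the 13 below it 2 did. The same order held over the whole list, with 53.8% above the median and 32.2% below. The summits at wg, fz, dsh, nkd and pan held none of the words. The 5 summits above the median signal with no word were the one at wg, 2 at sgg and 2 at nkd.

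**Figure D5:**
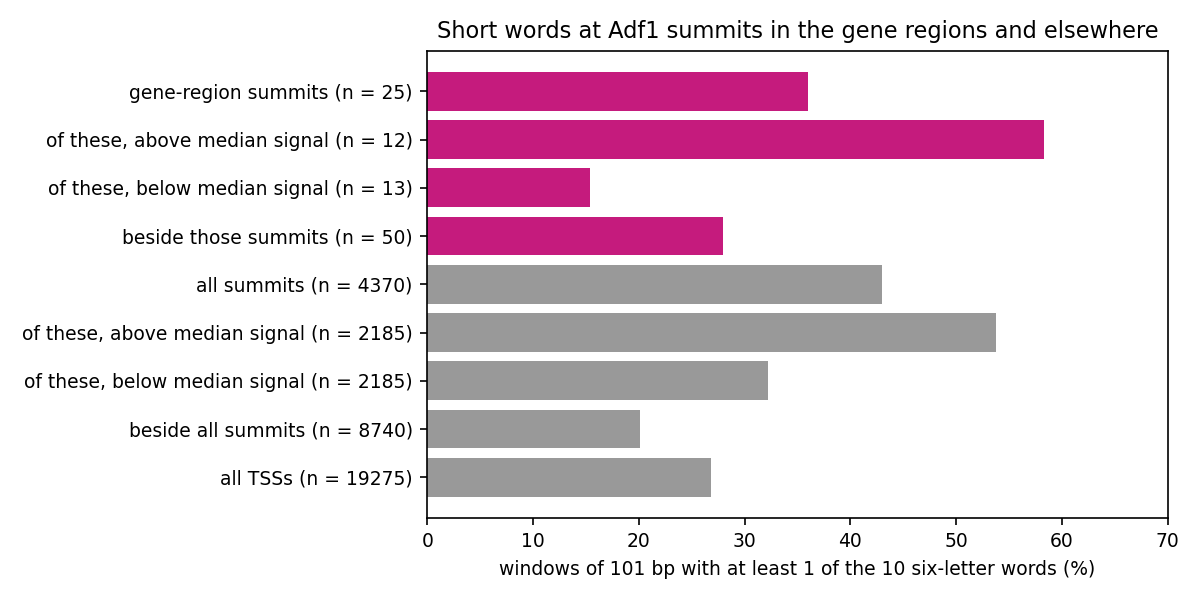
Share (%) of windows of 101 bp with at least 1 of the 10 six-letter words, at the summits of the 9 gene regions and beside them, and at all conservative summits, beside them and at all TSSs; n is the number of windows. The share was 36% at the 25 summits of the gene regions and 28% beside them. It was 58.3% at the 12 stronger and 15.4% at the 13 weaker summits of the 25, against 53.8% and 32.2% over the whole list.

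Of 39 further genes of the pathway, listed by their roles, 15 had a conservative summit within 500 bp of a TSS (38.5%), against 18.9% of all genes. The list was written with results of these data known, so its share is a description. The 23 with 1 TSS had 6 (26.1%), against 13.1% of all such genes, and the 16 with 2 or more had 9 (56.2%), against 34.8%. By role, 2 of 6 ligands were counted, 2 of 4 genes of ligand processing, 3 of 9 receptors and co-receptors, 4 of 12 genes of the destruction complex and its kinases, and 4 of 8 nuclear genes. Each role therefore holds both kinds of gene.

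The strongest of these summits were at gish, a casein kinase 1 gamma, with a signal of 665 at 155 bp, and at Notum, a secreted enzyme that removes the lipid of Wnt proteins, with 632 at 83 bp. Signals of 497 at Swim, which encodes a secreted binding partner of Wingless, 301 at the ligand gene Wnt6 and 275 at gro, which encodes the co-repressor Groucho, followed. The glypican gene dlp had 175, with the summit 9 bp from its TSS, the receptor gene fz4 had 153, and the kinase gene Hipk had 114.6. None reached the 877 of fz2 or the 2578 of sgg. Replicate 2's own list held a summit at all 15, and replicate 1's own list lacked 6 of them.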

How the data were processed

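Binding of Adf1-eGFP was measured by ChIP-seq in 2 replicate libraries of sonicated fragments of 200 to 800 bp. The authors derived peaks on dm6 from the alignments and a control file, per the deposited file lists. Neither the aligner nor the peak caller is named in the sources used here. Ranking used the irreproducible discovery rate (IDR), a measure of how well the ranks of peaks repeat between sets of calls. The deposited score is that rate as scaled by the authors to a maximum of 1000, and thresholded lists hold scores of at least 830. The deposited signal is the authors' peak-caller value, and the summit offset from the peak's start is theirs too.

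From these, summits were compared with the 19275 distinct TSSs of the 13968 protein-coding genes of Ensembl release 115 (BDGP6.54), on 7 chromosome arms. Replicate summits were matched within 250 bp. Sequences are from RefSeq's Release 6 genome. The six-letter words had to be in at least 2% of summit windows. All 9 genes and all their conservative summits are named, with any other gene whose TSS is within 500 bp. Other genes nearest to a summit, CG1737, CG18135, GCS1, CG33647 and CG13482, were named after their distances were seen. All 39 genes of the wider list matched the annotation, and the 8 counted ones of highest signal are named. The genes, the wider list and the rules were chosen with earlier results of these data known. With 1 group, no control sample and no read counts, no test was made and depth is unknown. Code was tested on simulated summits. Alternatives were the other lists, other distances, flanks, windows and motifs, each replicate alone, the part of the list above its median signal, and 161 peaks of the ranked list that pass the threshold but are missing from the conservative list, put back. Python 3.11.15, NumPy 2.4.6, pandas 2.3.3 and Matplotlib 3.10.9 were used.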

Additional observations from a re-analysis of the deposited data

How the results depend on the processing

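Of 54 alternative values, 37 stayed close to the values reported, meaning within 1.5 times for a count and within 0.129, the SD between the replicates' own lists, for the density. The other 17 moved. Both kinds are among the values that follow. Those that stayed close include the 4 genes with the outermost start alone and the 6 at 1000 bp. They also include the genes with a summit in their region and the triplet matches with 1 replicate's list. The number of the 9 genes with a summit within 500 bp of a TSS was 3 to 6 with either replicate's own list alone. It was 3 with the summits above the list's median signal, which dropped nkd and pan, against 9.71% of all genes. It was 4 with the outermost start alone, which dropped sgg, against 16.1%, and 6 at 1000 bp, which added Axn, against 21.4%. The summits in the gene regions numbered 16 to 35 with 1 replicate's list, 12 above the median signal, 16 without the flanks and 15 without the sgg region. Their density relative to the arm average was 1.39 to 1.57 with 1 replicate's list, 1.33 in the optimal list, 1.7 with flanks of 5 kb and 1.09 without sgg. Genes with a summit in their region numbered 7 to 8 with 1 replicate's list, against 47.8% and 63.4% of all genes, 5 above the median signal, against 35.7%, and 4 without flanks, against 11.6%. The wider list gave 9 to 20 genes with 1 replicate's list, against 14.3% and 23.2% of all genes, and 7 above the median signal, against 9.71%. Triplet matches fell to 1 of 25 in windows of 25 bp to either side, against 9.43% of all conservative summits. With the 11-letter repeat they also fell to 1 of 25, against 6.13%. They were in 3 of 16 summits with replicate 1's own list and in 4 of 35 with replicate 2's. Shares over all summits of those lists are not given here, so these counts cannot be set against a background. The six-letter words were in 9 of 25, against 43%. Leaving out sgg and the six-letter words were chosen after seeing the data. The cause of these moves was not tested, beyond the shorter lists and lengths that the alternatives use.

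No paired analysis was possible because the series holds 1 group. Precision is limited by n = 2 libraries of unknown depth, and by a signal scale that is not stated. The peaks were called against a control file that was not used here. The calls at nkd and pan are absent from replicate 1's own list and from the part above the median signal, and Axn is called at 500 bp in replicate 2's list alone.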

Other observations

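Where 2 summits shared 1 peak interval in the gene regions, they stood 199 bp apart at fz2 and 215 and 201 bp apart at sgg. Over the whole conservative list, 253 neighbouring pairs in a shared interval had a smallest spacing of 199 bp and a median of 204 bp, and 90.1% were under 250 bp apart. The spacings at fz2 and sgg are thus those of the list as a whole.

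Some summits were present only outside the conservative list. The wide interval at the internal sgg-RG start has conservative summits 312 and 513 bp downstream of that start. Replicate 2's own list had a summit there 19 bp from the same start, with a signal of 243. In the dsh region it had one with a signal of 87.4, 158 bp from the start of GCS1 and 8038 bp from that of dsh. In fz it had one in an intron, 47863 bp from the start, with a signal of 42.5. The optimal list had a summit 2713 bp upstream of the outermost fz2 start with a signal of 78.3, nearer to CG33647.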
